A study of Mus musculus with 6 samples.

Results

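Lgr5-expressing stem cells of the mouse small intestine that carried a Ctnnb1-ex3 allele were compared with wild-type stem cells, RefSeq entry by RefSeq entry. The comparison used the 16387 entries found in both deposited tables, of which 9615 (58.7%, 9505 gene symbols) had a value of at least 20 in either group and were kept. A Bcat value of 20.1, which is 8 reads, just passed, and 17.9, which is 7 reads, just failed. In WT the values on either side were 20.03 and 19.99. Of the 6 libraries of the series, 3 entered the comparison: 2 of the WT group and 1 of the Bcat group.

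The series asks what Polycomb repressive complex 1 does in the upkeep of the intestinal epithelium. All mice were of the C57BL/6 strain, carried Lgr5Gfp-CreERT2 (a green reporter and a tamoxifen-activated Cre recombinase at the Lgr5 locus), and received 3 injections of tamoxifen, with crypts taken 6 days later. GFP-positive cells were sorted, and RNA libraries were made with the TruSeq kit. WT cells carried the Cre allele alone. Bcat cells carried Lgr5Gfp-CreERT2-Ctnnb1-ex3, while their genotype field reads WT. The remaining groups, RingKO (2 libraries) and Bcat_RingKO (1 library), carried Ring1a-/- Ring1bf/f in addition to the alleles of WT and of Bcat, and serve below only to set a second library with the Ctnnb1-ex3 allele beside the first. Recombination is limited to cells in which Lgr5 drives the Cre. The labels give neither the number of animals per library nor whether animals were pooled, and they do not say what the Ctnnb1-ex3 allele changes.

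Beta-catenin is the transcriptional arm of canonical Wnt signalling. Without Wnt it is phosphorylated on residues encoded by the third exon of Ctnnb1 and degraded, and an allele that loses this exon makes a protein that escapes degradation. In the nucleus it works with TCF factors, and in crypts this sustains Lgr5 stem cells and restrains their differentiation into absorptive enterocytes, mucus-secreting goblet cells and other lineages.

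These limits hold for every value. The Bcat group is 1 library, so the comparison has no test and no p-value. The Bcat library was shallow, with 922153 reads over all entries against 6753789 and 6294932 in the WT libraries A and B, and the median entry kept had 46 reads in Bcat and 579 over both WT libraries. The 2 tables were scaled separately by the authors, so levels were compared as percentile ranks within each column, and table and genotype cannot be told apart. A rank difference is the Bcat rank minus the WT rank in percentile points, and an entry is called higher or lower at a difference of at least 20 points. Ratios are RPM (reads scaled to a common library total) in Bcat over RPM in both WT libraries together, with a 95% counting interval (exact conditional binomial) that covers counting error only.

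By this rule 821 entries were called higher in Bcat (8.54%) and 828 lower (8.61%). The 2 WT libraries differed by 20 points or more in 18 entries (0.187%). The rank difference had an SD of 15.1 points between Bcat and WT and 3.71 points between the WT libraries. Against each WT library taken alone, 700 entries were called higher against both and 736 lower against both. Differences this size were thus far more frequent than between the WT libraries, which were of nearly equal depth and came from 1 table. All 821 and 828 called entries had counting intervals that left out a ratio of 1. Calls and intervals come from the same reads, so this is no separate support for the calls. Of the entries called higher, 137 passed the minimum value only through Bcat, and of those called lower 135 passed only through WT. The entries kept had a median log2 ratio of 0.13 in RPM and -0.16 after scaling by trimmed means (TMM). Called at 2-fold, this turned 1826 higher and 1307 lower entries into 1213 higher and 1967 lower ones. Ranks do not depend on this choice, but they compress the top of the range. Olfm4, an abundant stem cell transcript, kept its rank (99.96 in WT, 99.94 in Bcat) at a ratio of 0.467 (0.446 to 0.487).

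**Figure D1:**
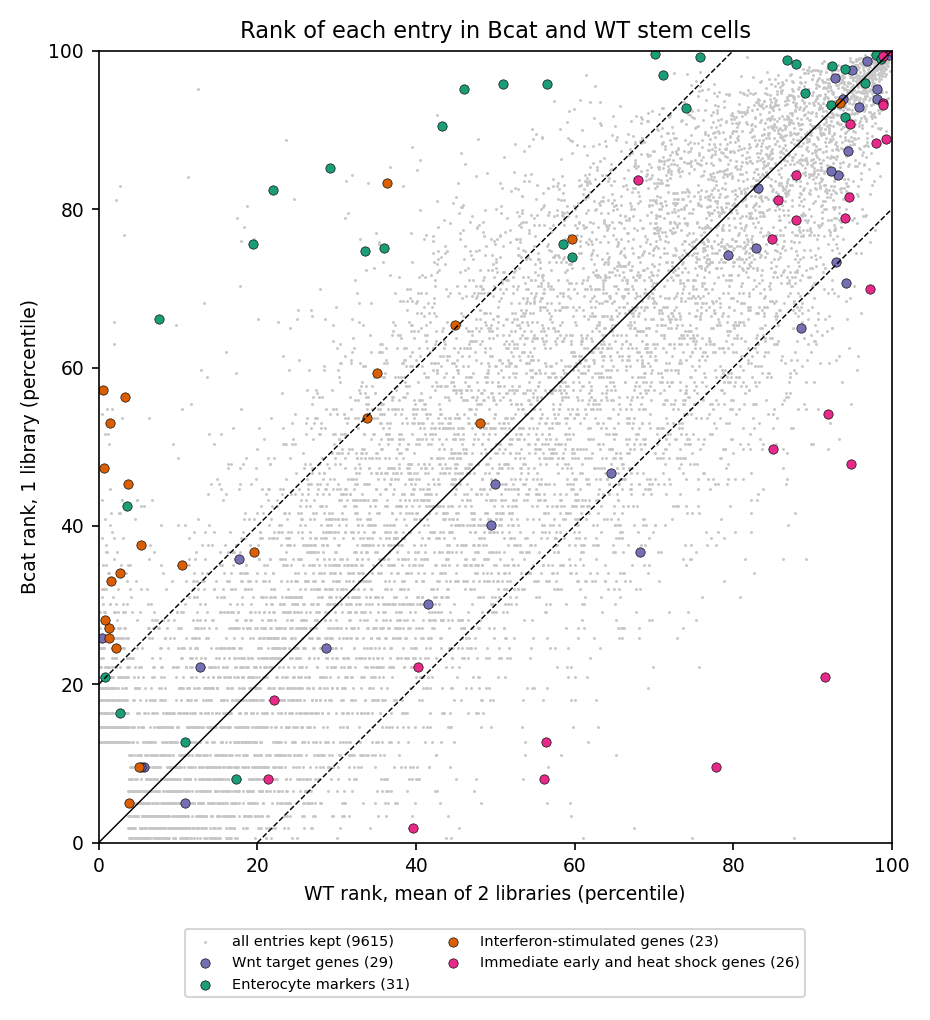
Percentile rank of each of the 9615 entries in WT (horizontal axis, mean of 2 libraries) and in Bcat (vertical axis, 1 library), with members of 4 gene lists in colour, the solid line at equal rank and dashed lines at 20 points. Interferon-stimulated genes and enterocyte markers lie above the upper line in 16 and 15 cases, immediate early and heat shock genes lie below the lower line in 9, and Wnt target genes spread along the diagonal.

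The rank difference followed the base composition of the transcripts. In the fifth of entries with the lowest GC content (up to 44.6%) the median difference was 11.7 points and 23.2% were called higher, and in the fifth with the highest GC content (from 56.0%) the median was -10.6 points and 24.4% were called lower. Across entries the Spearman correlation between difference and GC content was -0.57. It was -0.56 for Bcat_RingKO minus RingKO and -0.25 between the WT libraries. These are descriptions over entries that share the same libraries. Each difference was therefore also given relative to the median of entries of like GC content and transcript length, called "matched" from here on. Matched, 449 entries were called higher (4.73%) and 395 lower (4.16%) of the 9502 entries with a known composition. Of the entries called unmatched, 329 of the higher and 297 of the lower were also called matched. Whether the GC trend is technical was not tested.

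**Figure D2:**
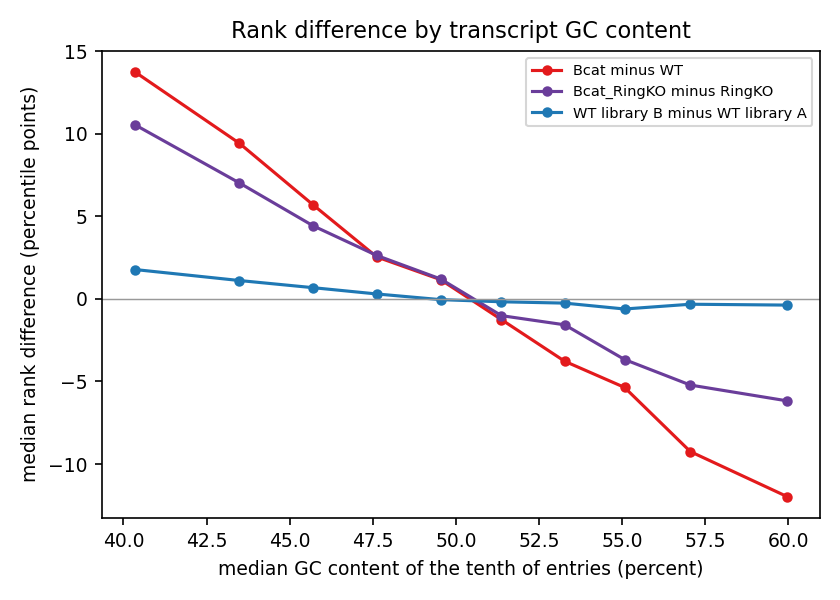
Median rank difference (vertical axis, percentile points) in 10 equal bins of the entries ordered by GC content (horizontal axis, percent). Both pairs of groups that cross the 2 tables fall from over 10 points in the lowest bin to below -6 in the highest, while the line for the 2 WT libraries stays within 2 points of 0.

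Ctnnb1, the gene that carries the engineered allele, was examined first. It had 600 and 528 reads in the WT libraries A and B and 14 in Bcat. Its rank went from 69.9 to 22.1, a difference of -47.8 points (-47.2 matched), at a ratio of 0.176 (0.0957 to 0.296). The second library with the allele showed the same: 76 reads in Bcat_RingKO against 214 and 192 in the RingKO libraries, a difference of -50.02 points. Both libraries of the second table were thus low for the single Ctnnb1 entry. The counts cover the whole transcript, so they check neither the loss of an exon nor the amount of protein, and the table cannot be told apart from the allele. Ring1 had 484, 363 and 24 reads (WT A, WT B, Bcat; -28.4 points, -16.9 matched) and Rnf2 had 220, 246 and 78 (21.9 points, 7.16 matched). Neither gene is targeted in these 3 libraries, and both calls were lost after matching. The Rnf2 call was also lost without WT library A (19.4 points).

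Direct targets of Wnt signalling were not higher as a group. Of 35 Wnt target genes in both tables, 29 were kept. Of these, 1 was called higher (3.45%, against 8.54% of all entries) and 3 lower (10.3%, near the 8.61% of all entries). Their median was -4.23 points (-0.71 matched) against -0.09 over all entries kept. Axin2, the scaffold that feeds back on beta-catenin and is the standard reporter of the pathway, had 4602, 4434 and 346 reads. That placed it at rank 98.1 in WT and 95.1 in Bcat (-2.98 points, 6.76 matched), and its ratio was 0.542 (0.485 to 0.603). In RPM, 682 and 705 in WT against 375 in Bcat, the Bcat library was below both WT libraries. Rnf43 and Znrf3, ubiquitin ligases that remove Wnt receptors, differed by -7.16 and -9.43 points. Ccnd1, which encodes cyclin D1, had 1771, 1652 and 430 reads, a difference of 3.71 points at a ratio of 1.78 (1.60 to 1.97). Tcf7 and Sox9 differed by -4.72 and -7.59 points. Lef1 and Myc are not in both tables and were not compared.

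Called lower were the transcription factor genes Sp5 and Sox4 and the ephrin receptor gene Ephb2. Sp5 had 546, 515 and 28 reads and differed by -31.6 points (-20.1 matched). Ephb2, which positions cells along the crypt, had 2060, 1984 and 91 reads (-23.5 points, -12.9 matched), and Sox4 had 1364, 1175 and 76 (-23.6 points, -18.0 matched). For all 3 the Bcat rank lay below both WT ranks, but only Sp5 stayed called after matching. The 1 called higher was Dkk2, a secreted modulator of Wnt receptors, with 5, 1 and 17 reads, a ratio of 40.1 (15.1 to 124) and 25.4 points (20.1 matched). Dkk2 passed the minimum value only through Bcat. The antagonist genes Notum, Nkd1 and Wif1, which respond to Wnt in many tissues, had 6, 9 and 1 reads, 30, 27 and 3 reads, and 1, 2 and 1 reads, and none was kept. Cd44 was not kept either (6, 9 and 2 reads).

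The TCF motif, spelled ATCAAAG and searched on both strands in RefSeq promoters (GRCm38.p6, 250 bases before to 50 after each start), was in 3.73% of all promoters, 2.60% of those of genes kept, 2.31% of those called higher and 3.19% of those called lower. Of 26 promoters of Wnt target genes kept, 5 held it (19.2%). These promoters cover 17 of the 29 genes, and the 5 belong to 4 genes. The Sp5 promoter (chr2:70474673-70474972, plus strand) is shown because Sp5 held the motif and was the Wnt target with the lowest rank difference. Capitals mark the motif, which reads on the opposite strand and begins 104 bases before the start site. A match describes the letters and is no evidence of binding.
Sp5: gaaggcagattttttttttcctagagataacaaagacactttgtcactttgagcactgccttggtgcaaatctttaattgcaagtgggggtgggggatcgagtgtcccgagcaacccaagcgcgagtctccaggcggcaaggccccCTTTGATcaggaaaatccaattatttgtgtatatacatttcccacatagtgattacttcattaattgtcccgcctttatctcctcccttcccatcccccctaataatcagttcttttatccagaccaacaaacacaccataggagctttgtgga

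Genes of the pathway machinery followed. Of 20 genes of the beta-catenin core kept, 5 were called lower (25.0%, against 8.61% of all entries) and 1 higher (5%, against 8.54%), with a median of -7.01 points. Matched, 2 were called lower (against 4.16% of all) and 1 higher (against 4.73%), with a median of -2.74. Bcl9l, a coactivator that bridges beta-catenin to chromatin, had 902, 904 and 25 reads (-48.6 points, -30.0 matched). The 3 Dishevelled genes, which relay the signal from the receptors, differed by -25.1 (Dvl1), -22.1 (Dvl2) and -26.1 points (Dvl3), and by -8.87, -5.92 and -9.86 matched. Amer1, a partner of the destruction complex, was the 1 called higher, with 162, 150 and 149 reads (49.3 points, 49.9 matched) and a ratio of 6.76 (5.52 to 8.24). Apc, its core scaffold, differed by 18.2 points (13.1 matched). Of 12 Wnt receptor genes kept 4 were called lower (33.3%, against 8.61% of all entries). These were Lrp5 (-35.9), Fzd2 (-31.4), Ptk7 (-30.9) and Ror2 (-25.5), and matched 0 were called lower, against 4.16% of all.

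Genes of the stem cell state itself stayed close in rank. Lgr5, whose locus drives the reporter used for sorting, had 942, 922 and 146 reads and ranks of 83.2 and 82.7, at a ratio of 1.11 (0.930 to 1.31). Ascl2, the transcription factor that maintains these cells, had 1049, 800 and 107 reads (-7.78 points, -1.46 matched), and Smoc2 differed by -1.30 points. Of the 35 members of the Lgr5 stem cell signature kept, 3 were called higher (8.57%) and 4 lower (11.4%), near the shares over all entries, with a median of -1.30 points (-0.53 matched). Their summed level was lower in Bcat: the 38 in both tables, Olfm4 among them, came to 15960 and 17760 RPM in WT and 11110 in Bcat. The median log2 ratio of those kept was -0.40 in RPM and -0.69 with TMM scaling. The sort selects on Lgr5, so the ranks of Lgr5 and its companions can be set by the gate. Sectm1b (392, 317 and 203 reads) was higher by 33.3 points (33.4 matched). Bmi1, a Polycomb subunit, and Nrn1 were higher by 30.9 and 30.5 points, but by 18.0 and 18.6 matched. Msi1, an RNA-binding protein of progenitors, had 830, 802 and 40 reads (-34.3 points, -21.7 matched) and was lower, as were Zbtb12, Ephb2 and Tert, whose calls were lost after matching. Tert (118, 102 and 3 reads) passed the minimum value only through WT.

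Mki67, the marker of cycling cells, had 5153, 4906 and 259 reads (-6.20 points) at a ratio of 0.364 (0.321 to 0.412). Of 47 cell cycle genes kept 1 was called higher (2.13%, against 8.54% of all entries) and 4 lower (median -1.93 points, -4.02 matched). The 8.51% called lower was close to the 8.61% of all entries. These 4 were Pole, Cdt1, Mcm10 and Lig1, which act in DNA replication, and Lig1 passed the minimum value only through WT. Matched, 1 was called in each direction, against 4.73% of all higher and 4.16% lower. Of 33 genes of Myc activity and ribosome biogenesis 0 were called higher and 5 lower (15.2%, against 8.61% of all entries), with a median of -5.77 points. Matched, 3 were called lower, against 4.16% of all, with a median of -6.35. Among the 5 were the pyrimidine synthesis gene Cad, the RNA polymerase I subunit gene Polr1a, Heatr1 and Utp20. The 70 cytosolic ribosomal protein genes kept had a median of -0.42 points, and the 1 called was Rpl38 (-30.7, 1.43% lower against 8.61% of all entries). Their level fell more than their rank: the 75 in both tables summed to 82780 and 75880 RPM in WT and 52760 in Bcat. The median log2 ratio of those kept was -0.53 in RPM and -0.82 with TMM scaling.

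**Figure D3:**
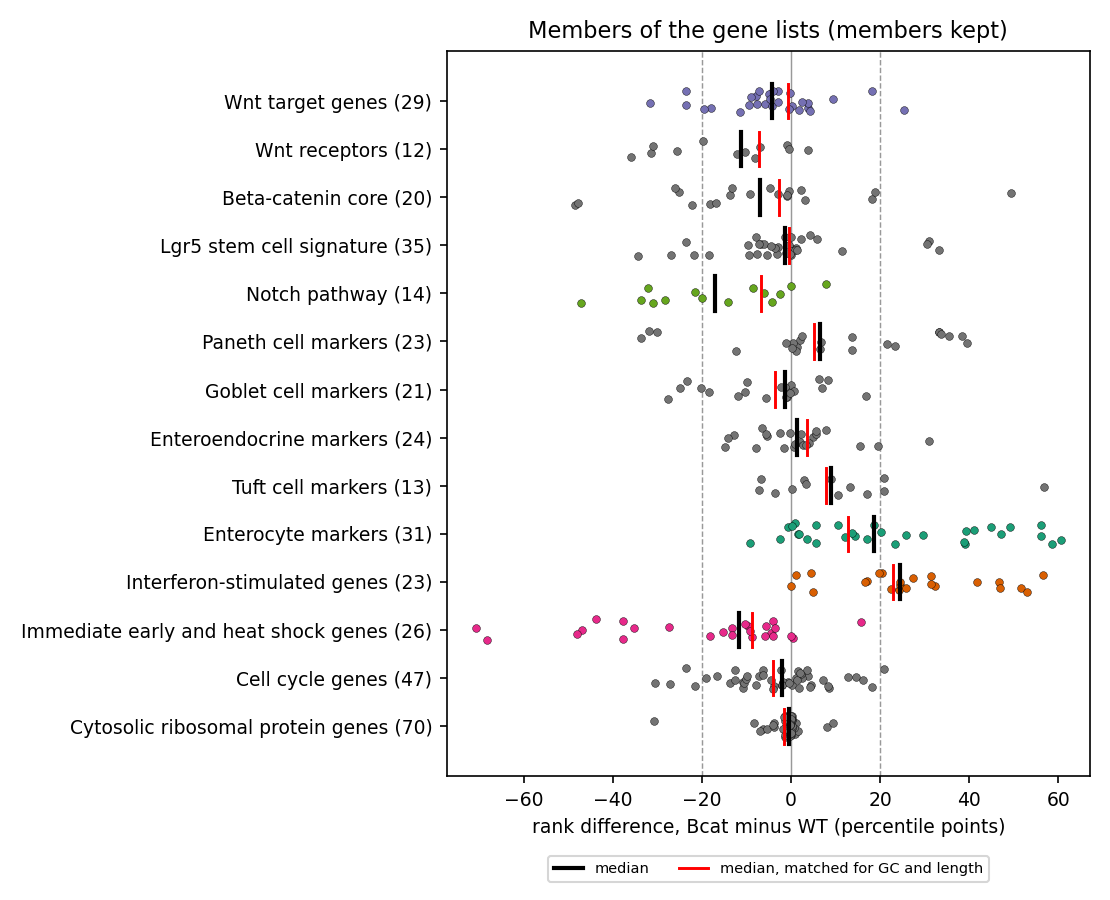
Rank difference (horizontal axis, percentile points) of each kept member of 14 gene lists, with the number kept in brackets. Black bars are medians, red bars medians matched for GC content and length, and dashed lines the 20-point limits. The enterocyte and interferon lists centre on 18.7 and 24.5 points, the Notch and immediate early lists on -17.1 and -11.8, and the Wnt target and stem cell lists near 0.

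Interferon-stimulated genes formed the list with the highest share of calls when a value of at least 20 in either group was enough. Interferons act through receptors at the cell surface and switch on antiviral genes. Of 28 members in both tables, 23 were kept. Of these, 16 were called higher (69.6%, against 8.54% of all entries) and 0 lower (against 8.61%), with a median of 24.5 points. Matched, 13 were called higher, against 4.73% of all, with a median of 23.0. Of the 16, however, 11 passed the minimum value only through Bcat and so had to lie higher there. Among the 12 members with a WT value of at least 20, 5 were called higher (41.7%), against 7.39% of all such entries, with a median of 18.4 points. By that minimum the list no longer came first: 46.4% of enterocyte markers were called higher and 50% of Notch pathway genes lower. With no minimum value, 11 of 28 were called higher and 1 lower, against 4.58% called higher of all entries in both tables. Their summed level was 586 and 543 RPM in the WT libraries and 1367 in Bcat.

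Ifit1, which binds foreign RNA, had 5, 3 and 59 reads, a ratio of 104 (49.6 to 253) and a rank difference of 56.6 points (46.8 matched). Isg15, a ubiquitin-like modifier, had 19, 5 and 51 reads, a ratio of 30.1 (18.2 to 51.1) and 51.6 points (51.0 matched). Rtp4 had 29, 25 and 57 reads (52.97 points) and Ifi44 had 4, 4 and 42 (46.6 points). In each of these the Bcat library had more reads than either WT library. All 4 passed the minimum value only through Bcat and so had to lie higher there, and their values are a description.

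The next 3 members passed the minimum value in WT as well. Oasl2, of the oligoadenylate synthetase family, had 179, 166 and 149 reads (47.0 points, 46.4 matched) at a ratio of 6.11 (5.01 to 7.43). The RNA sensor gene Ddx58 had 170, 157 and 63 reads (24.2 points, 19.0 matched) and Bst2, which tethers virions, 250, 235 and 77 (20.5 points, 20.8 matched). Ifitm3, the most abundant member, had 2016, 1656 and 287 reads and differed by -0.04 points, and the signal transducer gene Stat2 (294, 250 and 51 reads) differed by 4.99 points. The 15 antigen presentation genes kept, a group that interferons also induce, had a median of -2.45 points (1.96 matched). Of these, 1 was called higher (6.67%, against 8.54% of all entries) and 1 lower (6.67%, against 8.61%). The former, the class II gene H2-Aa, lost its call without WT library B (17.7 points).

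Since these members lay higher together, their promoters were searched, a choice made after the values were seen, for GAAA followed after any 2 bases by GAAA on either strand, the core of the interferon-stimulated response element (ISRE). It was in 13 of 18 promoters of the interferon-stimulated genes kept (72.2%), which cover 17 of the 23 genes. Of the 12 promoters of those called higher, which cover 11 of the 16 genes, 7 held it (58.3%). The share was 3.44% of all promoters, 4.48% of those of genes called higher and 2.17% of those called lower. Presence of this element is part of how such genes are known, so the count describes the list and not these cells. The promoters of Ifit1 (chr19:34640639-34640938, plus strand), Isg15 (chr4:156200769-156201068, minus strand) and Rsad2 (chr12:26456403-26456702, minus strand) are shown from RefSeq, GRCm38.p6, with the matches in capitals, as examples of separate, overlapping and single matches. Ifit1 held 2 matches, starting 104 and 85 bases before the start site, Isg15 held 3 that overlap, starting 78, 72 and 66 bases before it, and Rsad2 held 1, starting 120 bases before it.
Ifit1: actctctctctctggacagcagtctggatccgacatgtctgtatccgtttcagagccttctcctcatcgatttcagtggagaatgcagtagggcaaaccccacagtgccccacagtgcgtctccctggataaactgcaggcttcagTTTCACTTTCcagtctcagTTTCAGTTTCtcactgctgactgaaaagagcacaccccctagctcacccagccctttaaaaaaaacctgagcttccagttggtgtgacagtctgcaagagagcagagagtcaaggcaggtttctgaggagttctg
Isg15: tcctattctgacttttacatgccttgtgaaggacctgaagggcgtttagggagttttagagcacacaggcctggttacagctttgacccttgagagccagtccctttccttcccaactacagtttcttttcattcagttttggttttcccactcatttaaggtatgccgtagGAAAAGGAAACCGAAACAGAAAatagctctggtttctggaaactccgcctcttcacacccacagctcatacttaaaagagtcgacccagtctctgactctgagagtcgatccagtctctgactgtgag
Rsad2: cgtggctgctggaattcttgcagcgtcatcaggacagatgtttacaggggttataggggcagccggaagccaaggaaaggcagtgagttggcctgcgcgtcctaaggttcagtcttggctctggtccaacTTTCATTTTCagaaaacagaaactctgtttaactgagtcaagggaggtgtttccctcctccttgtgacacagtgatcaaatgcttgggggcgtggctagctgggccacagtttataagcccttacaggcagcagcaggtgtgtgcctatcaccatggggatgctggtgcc
Rsad2, which encodes the antiviral protein viperin, had 14, 8 and 17 reads and a difference of 24.5 points (15.9 matched), and it passed the minimum value only through Bcat. Ifi44 had a promoter in the table without a match.

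Enterocyte markers had the next highest share of members called higher at the minimum value in either group. Enterocytes absorb nutrients on the villus and are not the target of a sort for Lgr5. Of 33 markers in both tables, 31 were kept, of which 15 were called higher (48.4%, against 8.54% of all entries) and 0 lower, with a median of 18.7 points. Matched, 15 were called higher, against 4.73% of all, and 0 lower, with a median of 12.8. Only 2 of the 15 passed the minimum value through Bcat alone, and 13 of the 28 with a WT value of at least 20 were called higher, against 7.39% of all such entries. Summed, the markers came to 4622 and 4296 RPM in WT and 11580 in Bcat. The part of enterocytes carried into the sort was not tested.

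The lactase gene Lct had 88, 62 and 109 reads (56.2 points, 64.3 matched) and the intestinal alkaline phosphatase gene Alpi 264, 198 and 223 (47.2 points, 52.6 matched), at ratios of 10.3 (7.96 to 13.3) and 6.83 (5.79 to 8.03). Fabp1, a fatty acid carrier, had 301, 208 and 349 reads (49.1 points, 38.6 matched) and a ratio of 9.70 (8.44 to 11.1). The apolipoprotein genes Apoa4 (768, 382 and 1200 reads), Apoa1 (875, 532 and 857) and Apoc3 (122, 52 and 144) differed by 29.6, 23.3 and 60.5 points. For these the 2 WT libraries stood apart, with A above B, and Bcat lay above both. Mep1b, a brush border protease, had 136, 117 and 164 reads (56.1 points) and Cyp3a11, a drug-metabolizing enzyme, 64, 12 and 79 (58.5 points). Vil1, the brush border protein villin, did not share this: it stood at rank 98.7 in WT and 99.0 in Bcat, with 5662, 5556 and 783 reads and a ratio of 0.988 (0.917 to 1.06). The sucrase gene Sis, at 617, 693 and 272 reads, had 18.7 points (6.67 matched) and missed the call.

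The 12 entries that ranked highest in Bcat relative to WT, among those with a value of at least 50, are listed by the size of the difference. Of these 12, 5 (Mylk4, Tmigd1, Clca6, Pmp22 and Rhox8) passed the minimum of 20 only through Bcat, and 10 passed the minimum of 50 only through it, so they had to lie higher there. The first was Gda, a guanine deaminase, with 44, 54 and 347 reads, 82.7 points (77.6 matched) and a ratio of 50.1 (39.9 to 63.4). Mylk4 followed with 37, 7 and 147 reads (80.3 points), then the adhesion gene Tmigd1 with 19, 17 and 136 (79.0 points), and Clca6 with 22, 29 and 114 (73.6 points). The remaining 8 were Spink3, a protease inhibitor (58, 35 and 154 reads), Apoc2 (121, 69 and 198), Pmp22 (16, 16 and 78), the peptidase gene Ggt1 (82, 61 and 132), the alkaline phosphatase gene Akp3 (79, 55 and 124), Rhox8 (29, 3 and 71), Apoc3 and the fetal serum protein gene Afp (41, 95 and 119), with differences of 59.5 to 72.8 points. For Mylk4, Rhox8, Apoc3 and Afp the WT libraries themselves differed by over 2-fold, yet Bcat lay above both. All 12 stayed called after matching. In the other library with the allele their differences from RingKO ran from -14.0 (Afp) to 12.8 points (Spink3).

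**Figure D4:**
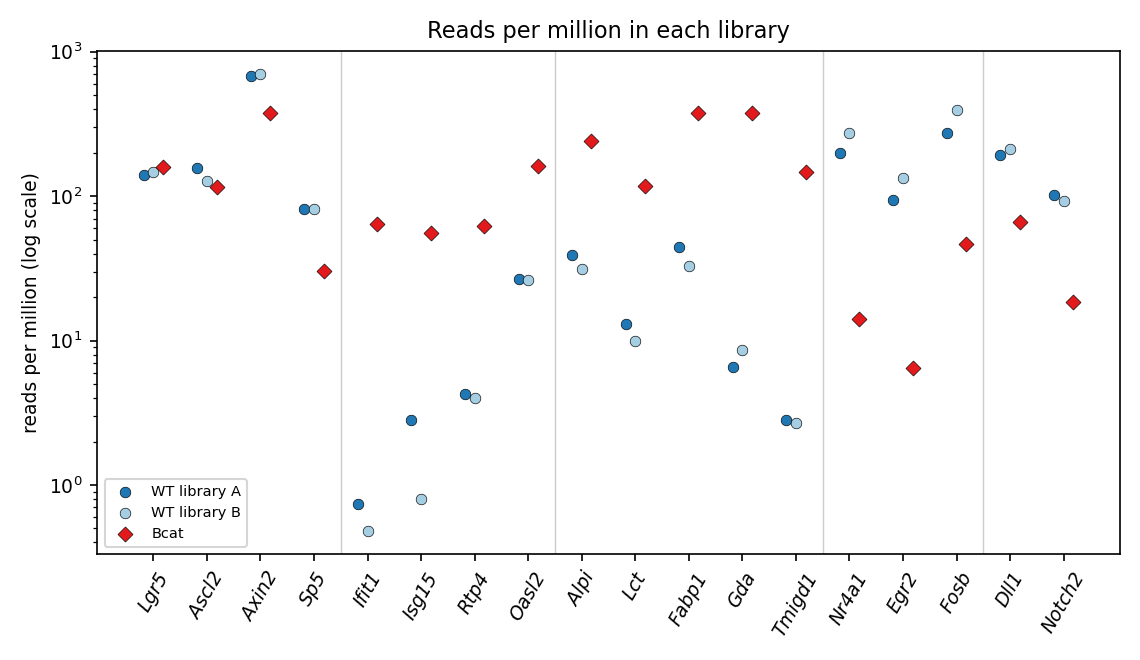
RPM (vertical axis, log scale) of 18 genes in WT library A, WT library B and the Bcat library, each point 1 library. Lgr5 and Ascl2 lie close together in all 3, Axin2 and Sp5 are lower in Bcat, the interferon-stimulated and enterocyte genes through Tmigd1 are higher in Bcat, and the last 5, from Nr4a1 to Notch2, are lower.

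Immediate early and heat shock genes are switched on within minutes by stress or growth factors. Of 26 such genes kept, 0 were called higher and 9 lower (34.6%, against 8.61% of all entries), with a median of -11.8 points. Matched, 8 were called lower, against 4.16% of all, with a median of -8.66. Of the 9, 3 passed the minimum value only through WT. Nr4a1, an orphan nuclear receptor, had 1351, 1717 and 13 reads (-70.7 points, -58.1 matched) at a ratio of 0.0600 (0.0319 to 0.103). Egr2 had 631, 841 and 6 reads (-68.3 points, -66.1 matched) and Fosb, a subunit of AP-1, 1857, 2500 and 43 (-47.0 points, -37.2 matched). The heat shock chaperone genes Hspa1a and Hspa1b had 165, 229 and 1 and 293, 411 and 5 reads, at ratios of 0.0359 (0.000907 to 0.201) and 0.101 (0.0325 to 0.236). In these 5 genes Bcat lay below both WT libraries, and WT library B above A, but Egr2, Hspa1a and Hspa1b passed the minimum value only through WT. The most abundant members differed in level more than in rank: Fos (5996, 7150 and 277 reads) and Egr1 (5264, 7438 and 283) had ratios of 0.298 and 0.315 at -5.85 and -5.54 points.  In Bcat_RingKO the list did not lie below RingKO (median -0.05 points, with 2 called lower). The EGF ligand genes Hbegf (755, 1012 and 34 reads, -40.6 points, -43.3 matched) and Areg (185, 266 and 10, -26.9 points, -34.5 matched) and the matrix gene Cyr61 (1336, 1809 and 53, -37.8 points, -33.4 matched) were lower as well.

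The 12 entries that ranked lowest in Bcat relative to WT, among those with a value of at least 50, include 4 that are noncoding RNAs or pseudogenes. Of the 12, 6 (Rpl31-ps12, Rmrp, H19, Egr2, Ier5l and Gadd45b) passed the minimum of 20 only through WT, and 9 passed the minimum of 50 only through it. Their Bcat values lie below that minimum by definition, so their falls are a description. Rpl31-ps12, a ribosomal protein pseudogene whose reads may be shared with its parent, had 1221, 1149 and 0 reads, at least 55.8-fold lower in RPM against a floor of 3 reads, and was as low in Bcat_RingKO (-91.7 points). Rmrp and Rpph1, the RNA components of RNase MRP and RNase P, had 1232, 163 and 0 and 1255, 180 and 14 reads, with the WT libraries themselves over 6-fold apart in both. Without WT library A the Rpph1 difference was -16.1 points and no longer called. H19, an imprinted noncoding RNA, had 304, 520 and 0 reads, at least 19.4-fold lower. Rmrp was at least 32.9-fold lower against both WT libraries together, and at least 7.96-fold against WT library B alone. The others were Nr4a1, Egr2, the stress genes Ier5l (376, 411 and 3) and Gadd45b (395, 553 and 7), the mucin gene Muc6 (1115, 1481 and 27), the ephrin receptor gene Epha2 (1046, 1129 and 27), the proline catabolism gene Prodh (919, 761 and 22) and the mitochondrial tRNA ligase gene Aars2 (577, 523 and 12), at -49.8 to -70.7 points. Muc6 was equally low in the other library of the second table (-54.7 points).

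In Notch signalling, ligands on one cell activate receptors on the next and hold stem cells back from the secretory fate. Transcripts of several pathway genes lay low in rank, and the activity of the pathway was not measured. Of 14 pathway genes kept 0 were called higher and 7 lower, against 8.61% of all entries, with a median of -17.1 points. Matched, 5 were called lower, against 4.16% of all, and the median was -6.84. The receptor gene Notch2 had 684, 584 and 17 reads (-47.1 points, -38.9 matched) and Notch1 2700, 2632 and 104 (-21.6 points, -5.95 matched). The ligand genes Dll1 (1295, 1325 and 61 reads), Dll4 (506, 465 and 23) and Jag1 (198, 148 and 5) differed by -31.1, -33.6 and -28.2 points, and by -21.3, -23.9 and -23.1 matched, and Jag1 passed the minimum value only through WT. Lfng, which modifies the receptors, differed by -32.2 points (-20.7 matched) and Rfng, of the same family, by -20.1 (-8.59 matched). The target gene Hes1 (1532, 1436 and 162 reads) differed by -6.15 points, the feedback gene Nrarp by 7.85 and Atoh1, the secretory fate factor that Notch represses, by -0.07. None of the 14 was called in Bcat_RingKO against RingKO, where 2.94% of all entries were called higher and 4.02% lower.

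Markers of the secretory lineages went in both directions. Of 23 Paneth cell markers kept, 8 were called higher (34.8%, against 8.54% of all entries) and 3 lower (13.0%, against 8.61%), with a median of 6.42 points (5.22 matched). The median was 12.6 without WT library A, 2.19 without WT library B and 2.63 with no minimum value. The lipase genes Pnliprp2 (335, 180 and 168 reads, 39.4 points) and Clps (480, 315 and 262, 33.1 points), the lysozyme gene Lyz2 (33, 29 and 36, 38.4 points) and the pentraxin gene Mptx2 (563, 295 and 462, 35.4 points) were among those called higher, and matched all but Mptx2 (19.2 points) stayed called. Lyz1, the main Paneth lysozyme, had 10460, 6311 and 1575 reads and 0.53 points, so it did not share the call of Lyz2. Summed markers of myeloid cells were also higher in Bcat (66.5 and 60.4 RPM in WT, 107 in Bcat). The part of such cells in the Lyz2 value was not tested. Among the defensins, Defa24 had 5826, 3567 and 169 reads (-12.4 points) and Defa5 381, 146 and 10 (-30.2), while Defa26 had 545, 180 and 202 (33.1). Defensins are near-identical copies between which reads can be split, so their single values are uncertain.

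Of 21 goblet cell markers kept 0 were called higher and 4 lower (19.0%, against 8.61% of all entries), with a median of -1.43 points (-3.53 matched): the factor genes Spdef (843, 912 and 59 reads, -24.9 points) and Creb3l1 (1597, 1730 and 76, -27.5), the kallikrein gene Klk1 (-20.3) and the tryptase gene Tpsg1 (-23.4). Matched, Spdef and Creb3l1 were no longer called, and without WT library B neither was Klk1 (-18.8 points). The mucin gene Muc2 had 9628, 10884 and 303 reads, a ratio of 0.209 (0.186 to 0.234) at -5.55 points. Tuft cell markers had 3 of 13 called higher (23.1%, against 8.54% of all entries) and 0 lower (median 8.90 points, 7.83 matched), led by Rgs13, a regulator of G-protein signalling, with 75, 75 and 112 reads (56.7 points, 37.6 matched). The other calls, Alox5ap and Hpgds, were lost without WT library B (19.3 points) and without WT library A (18.9 points). Of 24 enteroendocrine markers 1 was called higher (4.17%, against 8.54% of all entries), the neuropeptide gene Tac1 (186, 228 and 94 reads, 30.9 points). Chga, which encodes chromogranin A, had 2443, 2599 and 555 reads (1.96 points) at a ratio of 1.56 (1.42 to 1.70). At rank 95.7 in WT it could not be called higher.

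Factors that govern enterocyte genes were called higher at a share near that of all entries. Of 21 intestinal identity factors kept 2 were called higher (9.52%, against 8.54% of all entries) and 3 lower (14.3%, against 8.61%). Their median was -4.23 points (1.96 matched). Hnf4g, a nuclear receptor of enterocyte genes, had 453, 404 and 292 reads (31.6 points, 19.7 matched), and Creb3l3, which drives apolipoprotein genes, 60, 35 and 55 (43.8 points, called matched too).

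Markers of cells from outside the epithelium had low levels. Summed RPM in WT A, WT B and Bcat were 25.2, 20.3 and 72.7 for the 16 lymphocyte markers in both tables, 66.5, 60.4 and 107 for 14 myeloid markers and 51.9, 46.6 and 150 for 12 stromal markers. All 3 sums were thus highest in Bcat. Some single members had few reads: the T cell gene Cd3e had 3, 2 and 0, and the macrophage genes Csf1r and C1qa had 18, 4 and 2 and 23, 17 and 0. At the depth of the Bcat library, counts this low cannot show a fall, and they do not stand for their lists. The collagen gene Col1a2 (14, 7 and 25 reads, 32.7 points) and Laptm5 (28, 14 and 17, 23.3 points) were called higher, and both passed the minimum value only through Bcat. The 4 lymphocyte markers kept also passed only through Bcat, and 0 were called. With no minimum value, 6 of 12 stromal, 5 of 14 myeloid and 4 of 16 lymphocyte markers were called higher, against 4.58% of entries of every level. Their medians were 18.5, 14.3 and 7.28 points. In that setting all entries without Bcat reads share 1 tied rank, which lifts entries with few reads. The 37 Hox genes in both tables, 25 of them without Bcat reads, had a median of 10.9 points there. These counts and medians therefore cannot show a rise. Matched, 3 of the 5 stromal markers kept were called higher, against 4.73% of all, with a median of 20.9. Of these 5, however, 4 passed the minimum value only through Bcat and so had to lie higher there before matching. No red cell marker is in both tables. The part of such cells in the values of the other lists was not tested.

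The second library with the Ctnnb1-ex3 allele was set beside the first. In Bcat_RingKO against RingKO 283 entries were called higher (2.94%) and 387 lower (4.02%). Called higher in both pairs were 68 entries, 8.28% of those of Bcat (against 2.94% of all entries) and 24.0% of those of the Ring pair, and called lower in both were 119, 14.4% (against 4.02%) and 30.7%. Of the rest, 7 were called higher in Bcat and lower in the Ring pair, and 1 the reverse. The medians in the Ring pair were 2.62 points for interferon-stimulated genes (1 called higher, 1 lower), 0.71 for enterocyte markers (0 called), -3.56 for the Notch pathway and 1.27 for Wnt target genes, where Prox1 alone was called higher (32, 45 and 561 reads in RingKO A, RingKO B and Bcat_RingKO, 50.5 points). Lgr5 differed by 15.6 points there, with 461 and 222 reads in RingKO and 1505 in Bcat_RingKO. Paneth markers lay low in that pair, with 11 called lower and a median of -19.2 points. These 2 differences come from different libraries but cross the same 2 tables, and whether they differ from one another was not tested.

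**Figure D5:**
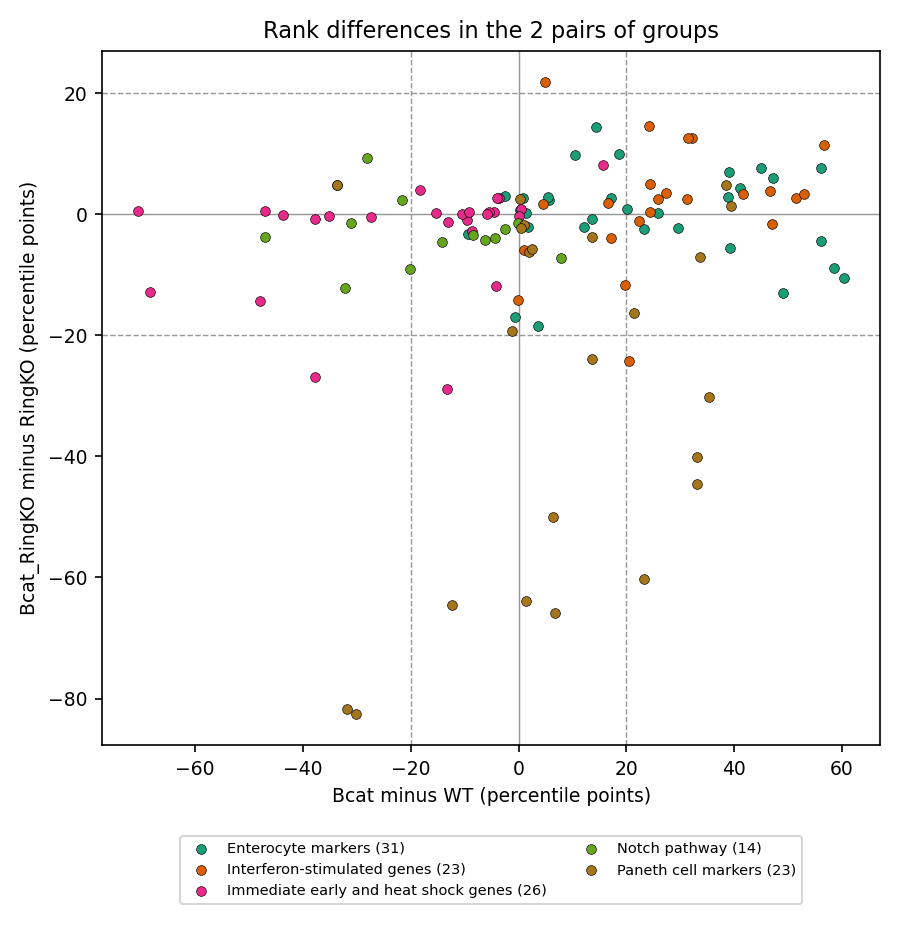
Rank difference of Bcat from WT (horizontal axis) against that of Bcat_RingKO from RingKO (vertical axis), in percentile points, for the kept members of 5 gene lists, with dashed lines at 20 points. Enterocyte, interferon-stimulated, Notch and immediate early genes spread along the horizontal axis and stay within 20 points of 0 on the vertical axis with 4 exceptions, while Paneth markers reach down to -82.5 points on the vertical axis.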

How the data were processed

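RNA of sorted stem cells was sequenced in 6 libraries. The authors deposited 2 tables of signal values per RefSeq entry, which by their steps are reads plus 1, divided by a size factor per library: TopHat, DESeq and the genome build mm9 are named per the submitters' processing notes, while for the counter, annotation and strand setting nothing is given in the sources used here. One table holds the WT and RingKO means of 2 libraries each, the other Bcat and Bcat_RingKO. Whole reads were recovered from the steps of the values, with 100% of the values within 0.001 of a whole number in the Bcat columns. The letters A and B for the libraries behind a mean are arbitrary. Of the WT means, 18360 had a single solution and 16 had several.

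Entries were joined by RefSeq ID and kept at a value of at least 20 in either column. Percentile ranks were taken within each column, with ratios from RPM (reads scaled to a common library total) and log2 ratios with 0.5 reads added. Matching subtracted the median difference of 10 GC bins by 5 length bins. No test was run, since Bcat is 1 library. Intervals of 95% cover counting error only. Named were 24 preset genes, of which 21 are in both tables, while Lef1, Myc and Dclk1 are not and could not be compared. To these came the 12 largest differences in each direction at a value of at least 50 and with a Bcat rank beyond both WT ranks (predicted genes without a name left out). At most 4 called genes from each of 37 lists were added. Further genes named in the text were chosen after their values were seen, as were the matching, the restriction to symbols with 1 entry and the ISRE search. The genes and lists were chosen with earlier results of these data known. The scripts were tested on simulated data and used pandas 2.3.3, numpy 2.4.6, scipy 1.17.1, matplotlib 3.10.9 and edgeR 4.0.16 (for TMM scaling) in R 4.3.3. Some results are not reported here.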

Additional observations from a re-analysis of the deposited data

Results flagged for a closer look

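Mptx2, a mucosal pentraxin of Paneth cells, ranked 35.4 points higher in Bcat than in WT and differed by -30.2 points between Bcat_RingKO and RingKO, with every library of each pair on that side. Xist, the noncoding RNA of the inactive X chromosome, differed by -28.5 points (310, 305 and 15 reads in WT A, WT B and Bcat) and by 41.5 points in the Ring pair (164, 141 and 2091 reads). The opposite directions of Mptx2 and Xist in the 2 pairs were not tested. Of 5 sex-linked transcripts kept, Xist was the 1 called lower (20%, against 8.61% of all entries). The Y-linked gene Eif2s3y was the 1 called higher (20%, against 8.54%), with 172, 147 and 60 reads (23.3 points, 7.04 matched). Whether the libraries differ in the sex of their animals was not tested.

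Some entries have a value of at least 20 in Bcat and stand outside the joined table, so they entered no comparison. The mast cell protease genes Cpa3 and Cma1 had deposited values of 134.2 and 29.1 in Bcat, and the myeloid genes Mpo and Ncf4 44.7 and 24.6. Ube2u had 53.7 and Ttbk1 24.6. An entry without reads stands at 2.24 on this scale.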

How the results depend on the processing

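With 821 entries called higher and 828 lower, a call at 10 points gave 2262 and 2206, and one at 30 points 242 and 261. A 2-fold call on RPM gave 1826 and 1307, TMM scaling 1213 and 1967, and matching for GC and length 449 and 395. Leaving out 1 WT library gave 805 to 863 higher and 834 to 843 lower. Minimum values of 10, 50 and 100, 1 entry per symbol and symbols with a single entry kept both counts within 1.5 times. The enterocyte median of 18.7 points became 28.2 at a minimum of 50, 11.0 with no minimum and 12.8 matched. The immediate early and heat shock median of -11.8 became -7.71, and the interferon median of 24.5 became 14.3, both with no minimum. The cause of these changes was not tested. Entries called higher outnumbered those called lower by RPM and after matching, and were fewer by rank and with TMM scaling. No paired analysis was possible because the Bcat group is 1 library and no test was run. The depth of 922153 reads limits entries near the minimum value, where 8 reads in Bcat decide whether an entry is kept.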
